A study of Mus musculus with 5 samples.

Results

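The far upstream end of mouse chromosome 16, from 3 to 38.34 Mb (mm10), lies more than 10 Mb upstream, towards lower coordinates, of a 4C bait in the Dppa2/4 domain at 48.3 Mb. 4C-seq counts the fragments ligated to the bait, and so ranks parts of the chromosome by how often they lay near it. The stretch was cut by position alone into 71 bins of 500 kb (the last is shorter), out of 199 bins of chromosome 16 and 4937 on all autosomes. It holds 363 protein-coding gene starts (RefSeq, GRCm38.p6, which is mm10).

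The data are 2 clones, A6 and E2, of a Cas/129 hybrid mouse embryonic stem cell line grown in 2i and LIF. Each clone has a 129 and a CAST (Mus castaneus) copy of chromosome 16, and the authors split each library into a 129 and a CAST column. Whether the strain of a column is that of the bait copy or of the fragment read was not tested. Signal or contacts of a copy below therefore mean the signal in its column, which the bait of either copy may have caught. Both clones carry CRISPR deletions of 3 intervals beside the bait (48308399 to 48311882, 48396806 to 48437301 and 48581359 to 48620367), and no hybrid clone without them was analysed here. The labels do not say which copy is deleted. Windows inside the second interval held 6 reads on 129 against 7361 on CAST in A6, with 8 and 13326 in E2, and those inside the third 1 against 2519, then 5 and 7039. No window lay wholly inside the first interval. The strain of a chromosome copy and its deletions therefore cannot be told apart in any comparison below, and with 2 clones each value has 2 replicates. The labels do not say whether the clones were grown and processed apart. The limma p-values thus rest on the spread between these 2 samples alone, pooled over autosomal bins of like signal.

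A chromosome's fragments touch their neighbours most, and contacts become rare with distance. Far from the bait, 4C signal is thought to follow compartments: active, gene-dense chromatin tends to lie near other active chromatin, and silent chromatin near the nuclear lamina. Dppa2 and Dppa4, next to the bait, encode chromatin proteins of pluripotent cells, and the series asks how elements in cis set replication time. The comparison described here asks which far upstream bins had most signal in each allele column, whether the columns differed, and whether the difference followed gene density.

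The viewpoint and some of its contacts can be shown as sequence. The primers listed as the bait of these clones are given first, but the protocol names other primers, and the position of the bait could not be checked against either pair. The 4 promoters after them lie in 5-kb windows with reads, and were chosen after their reads were seen. Tprg lies in the bin that ranked 2 on 129, Il1rap in the bin that ranked 3 on CAST, Fgf12 in the bin that ranked 1 on CAST, and the Rrn3 window was read almost only on CAST. Sequences are RefSeq, GRCm38.p6, 5′ to 3′ on the gene's strand, and capitals mark the HindIII site AAGCTT, where 4C fragments were cut first, and the DpnII site GATC, where they were cut again.
Bait forward primer: tttgggattttggagtgaagc
Bait reverse primer: ctgctggacttgtcaactgaa
Tprg, chr16:25286567-25286866, plus strand: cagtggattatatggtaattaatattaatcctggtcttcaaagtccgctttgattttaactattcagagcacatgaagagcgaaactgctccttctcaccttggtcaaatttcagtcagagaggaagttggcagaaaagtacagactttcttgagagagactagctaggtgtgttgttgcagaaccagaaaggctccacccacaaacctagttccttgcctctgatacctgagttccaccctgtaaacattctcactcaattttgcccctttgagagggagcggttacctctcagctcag
Il1rap, chr16:26581455-26581754, plus strand: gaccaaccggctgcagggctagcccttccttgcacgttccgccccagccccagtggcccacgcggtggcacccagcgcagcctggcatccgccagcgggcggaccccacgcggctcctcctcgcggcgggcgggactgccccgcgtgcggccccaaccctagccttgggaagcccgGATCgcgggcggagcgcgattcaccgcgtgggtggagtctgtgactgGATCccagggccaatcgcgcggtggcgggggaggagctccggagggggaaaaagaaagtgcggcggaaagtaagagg
Fgf12, an internal start, chr16:28564902-28565201, minus strand: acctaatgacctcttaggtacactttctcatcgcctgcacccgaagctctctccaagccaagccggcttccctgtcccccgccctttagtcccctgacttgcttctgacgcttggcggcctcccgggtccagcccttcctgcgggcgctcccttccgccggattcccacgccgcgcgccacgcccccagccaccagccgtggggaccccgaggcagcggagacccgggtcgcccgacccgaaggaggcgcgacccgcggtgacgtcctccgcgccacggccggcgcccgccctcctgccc
Rrn3, chr16:13780449-13780748, plus strand: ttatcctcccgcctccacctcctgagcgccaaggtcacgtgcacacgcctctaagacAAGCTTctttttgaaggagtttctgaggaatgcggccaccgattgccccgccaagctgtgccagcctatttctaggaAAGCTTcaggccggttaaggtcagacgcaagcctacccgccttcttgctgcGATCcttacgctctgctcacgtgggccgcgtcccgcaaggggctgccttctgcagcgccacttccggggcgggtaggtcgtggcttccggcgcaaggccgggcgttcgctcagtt

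Both sites read the same on either strand, and they do not overlap each other. The Rrn3 promoter, of a gene for an RNA polymerase I initiation factor, held 2 HindIII sites and 1 DpnII site, the Il1rap promoter 2 DpnII sites, and the other promoters shown held neither. Of all 32851 promoters of this length in the table, 7.46% held a HindIII site and 48.0% a DpnII site. In the stretch 31 of 364 promoters of protein-coding genes held a HindIII site. The window of the Tprg promoter held 312 reads on 129 against 0 on CAST in A6, with 210 and 0 in E2. The Il1rap window held 88 and 428 reads in A6, and 19 and 101 in E2. The Fgf12 window was read on both copies, with 81 and 83 reads in A6 and 166 and 356 in E2. The Rrn3 window held 0 and 223 reads in A6, and 2 and 46 in E2. Of 303 protein-coding promoters with a window, 22 were read on both copies, 17 on 129 alone, 16 on CAST alone and 248 on neither. A 5-kb window can hold several HindIII fragments, and reads can be told apart only where the strains differ in sequence, so these windows do not locate a contact at a promoter.

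Signal is given as RPM, reads scaled to a common total in each allele column, averaged over the 5-kb windows of a bin. Over the whole stretch the 129 copy had 4.16 RPM in A6 and 4.13 in E2, and the CAST copy 5.79 in A6 and 5.25 in E2. Both CAST values lay above both 129 values. The log2 ratio of 129 to CAST was -0.48 in A6 and -0.35 in E2, or -0.41 ± 0.09 (SD, n = 2 clones). The median bin gave -0.39 and -0.35. An exact sign-flip test over 2 clones cannot go below a two-sided p of 0.5, so no test is given for such values. The other far end of the chromosome, over 10 Mb downstream, went the other way in both clones, with 7.01 RPM on 129 against 5.90 on CAST in A6 and, in E2, 6.81 and 5.46 (log2 0.28 ± 0.05). The difference between the ends was not tested. Over the other autosomes the ratio was 0.03 ± 0.0042, with 1.58 RPM on 129 and 1.54 on CAST, so the stretch had more signal than these on either copy.

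Contacts were not spread evenly over the stretch. On both copies the highest part was 25 to 30 Mb, 18.3 to 23.3 Mb from the bait, with a mean of 7.58 ± 0.67 RPM on 129 and 9.72 ± 1.78 on CAST (SD, n = 2). Its 10 bins hold only 17 gene starts, among them Trp63, a regulator of stratified epithelia, Cldn1, a tight-junction gene, and Opa1, a gene of mitochondrial fusion. They include 6 of the 8 highest bins on 129 and 4 of the 8 highest on CAST. Nearer the bait the signal was lower, with 3.35 ± 0.41 RPM on 129 and 4.56 ± 0.90 on CAST at 30 to 35 Mb, and 2.07 ± 0.18 and 3.39 ± 0.79 at 35 to 38.34 Mb. Across the 71 bins, Spearman's rho of the signal with distance from the bait lay between -0.23 and -0.07 in the 4 columns, which share their fragments and are not independent.

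**Figure D1:**
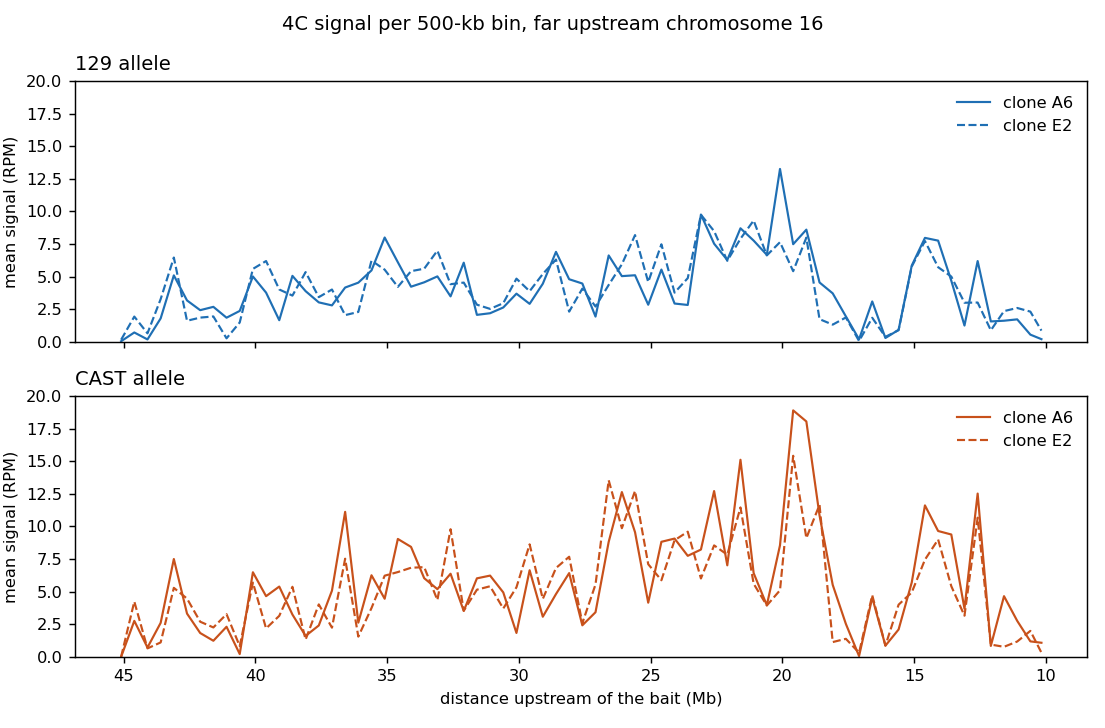
Mean 4C signal in RPM (y axis) of each 500-kb bin against its distance upstream of the bait in Mb (x axis), for the 129 copy (top) and the CAST copy (bottom), with clone A6 as a solid and clone E2 as a dashed line. By the mean of the clones both copies were highest near 20 Mb from the bait, in neighbouring bins. In A6, CAST reached 18.9 RPM in the bin at 28.5 to 29 Mb, and 129 reached 13.3 in the bin at 28 to 28.5 Mb.

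The CAST excess was present in all 7 parts of the stretch, and was most alike between the clones at 20 to 25 Mb. There the 129 copy had 4.21 RPM in A6 and 4.83 in E2, and the CAST copy 7.31 and 8.35, a log2 ratio of -0.80 in A6 and -0.79 in E2. This part holds Igf2bp2, which encodes an mRNA-binding protein, Etv5, a transcription factor gene active in embryonic stem cells, the plasma protein genes around Ahsg, and Lpp. Farther from the bait the ratio was smaller, -0.16 ± 0.11 over 3 to 10 Mb, then -0.19 ± 0.14 up to 15 Mb and -0.33 ± 0.04 up to 20 Mb. From 25 to 35 Mb it was -0.35 ± 0.14 and then -0.44 ± 0.11 per 5 Mb. At 35 to 38.34 Mb it was -0.69 ± 0.47, where the clones differed most, with -1.02 in A6 and -0.36 in E2.

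The bins with most signal on CAST were mostly not those with most signal on 129. Of the 8 highest bins of each copy, by the mean of the clones, 2 were shared. These were 26.5 to 27 Mb, where Il1rap starts, a co-receptor of interleukin 1, and 29 to 29.5 Mb, where Plaat1 and Atp13a5 start. Within a copy the clones shared 6 of 8 on 129 and 4 of 8 on CAST, and between the copies of a clone 3 of 8 were shared in A6 and 2 in E2. Over all 71 bins the clones had a Pearson r of 0.83 on 129 and 0.85 on CAST (log2 of RPM + 0.5), against 0.76 between the copies of A6 and 0.67 between those of E2. These correlations are across bins that share reads with their neighbours.

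On the 129 copy the highest bin was 28 to 28.5 Mb, which has no gene start and overlaps the lower end of Fgf12, a gene for an intracellular modulator of neuronal sodium channels. Its 129 signal was 13.3 RPM in A6 and 7.64 in E2, and its CAST signal 8.55 and 5.10, so that E2 on 129 lay below A6 on CAST. Second was 25 to 25.5 Mb, where Tprg, a gene beside Trp63, starts. It had 9.76 and 9.74 RPM on 129 and 8.23 and 6.01 on CAST, with no overlap. limma did not call it (log2 0.44, adjusted p = 0.459), except with the running mean undone and the most read window of each bin left out (log2 1.42, adjusted p = 0.0194), a setting chosen after seeing the data. Over windows with at least 10 reads on each copy it was lower on 129 (limma log2 -0.97, adjusted p = 0.81). Next was 27 to 27.5 Mb with Ostn, which encodes a secreted peptide of bone and muscle, Uts2b and Ccdc50. It had 7.76 and 9.30 RPM on 129 and 6.42 and 5.61 on CAST. The fourth to the eighth were 26.5 to 27 Mb (8.70 RPM in A6 and 7.90 in E2), 29 to 29.5 Mb (8.60 and 7.99), 25.5 to 26 Mb with Trp63 (7.52 and 8.48), 33.5 to 34 Mb with Muc13, Slc12a8, Heg1 and Itgb5 (7.97 and 7.72), and 13 to 13.5 Mb with Mrtfb and Ercc4 (8.0 and 5.53). Mrtfb is a coactivator of serum response factor and Ercc4 a nuclease gene of DNA repair.

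On the CAST copy the highest bin was 28.5 to 29 Mb, where Fgf12 and Mb21d2 start. Its CAST signal was 18.9 RPM in A6 and 15.4 in E2, and its 129 signal 7.48 and 5.41. It holds the upper end of Fgf12 and lies next to the highest 129 bin, which holds its lower end. Next were 29 to 29.5 Mb (18.1 RPM on CAST in A6 and 9.10 in E2, a spread of SD 6.33) and 26.5 to 27 Mb (15.1 and 11.5). The fourth was 35.5 to 36 Mb with Parp14, a gene of the interferon response, Sema5b, an axon guidance gene, Slc49a4 and Hspbap1, at 12.5 and 10.7 RPM. The fifth was 29.5 to 30 Mb with Opa1 and Atp13a4, at 10.8 and 11.7. The bins from 21.5 to 23 Mb made up the rest. They were at 8.82 and 13.5 RPM around Map3k13 and Ehhadh, at 12.6 and 9.86 around Igf2bp2, Etv5, Senp2 and Tra2b, and at 9.56 and 12.7 around Ahsg, Fetub and Hrg.

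At the other end, 2 bins were too low to test. The bin at 3 to 3.5 Mb held 7 reads on 129 in A6, 36 in E2 and 0 on CAST. The bin at 31 to 31.5 Mb, with Xxylt1, Acap2, Ppp1r2 and Apod, held 36 and 10 reads of its own on 129 and 0 on CAST. A count of 0 on CAST is a limit of these libraries and does not show that a bin was never met. The bin at 4 to 4.5 Mb, where Crebbp starts, a histone acetyltransferase gene, was at 0.18 and 0.64 RPM on 129 and 0.71 and 0.64 on CAST, so low signal was found in bins with genes as well.

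Differences between the copies were tested per bin with limma, on log2(RPM + 0.5) with clones as blocks, adjusted by Benjamini-Hochberg over all 4529 autosomal bins tested, at an adjusted p under 0.05. Of the 69 bins tested in the stretch, 5 were higher on CAST and 0 on 129. Over all autosomes limma called 2.43% of bins higher on CAST and 4.17% higher on 129. At an unadjusted p under 0.05, 18 bins of the stretch were higher on CAST and 2 on 129, and edgeR on recovered reads called 4 of 68 higher on CAST and 0 on 129 (17 and 1 unadjusted), against 3.55% and 5.94% of all autosomal bins. When each column was scaled to its own total over the stretch, which removes the overall CAST excess, the calls were 2 higher on CAST and 1 on 129, against 1.41% and 9.49% of all autosomal bins so scaled. The scaling itself moved the median limma log2 of all autosomal bins from 0.06 to 0.36, towards 129. Those shares therefore carry this shift and are no background for the calls in the stretch. Unadjusted, 5 bins of the stretch so scaled were higher on CAST and 7 on 129. The unadjusted surplus on CAST thus restates the higher CAST level of the stretch. Shares of all autosomal bins at an unadjusted p are not given here, for these counts or for those below. The fit gave all bins of like signal the same spread, so a p-value is only as good as that assumption.

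**Figure D2:**
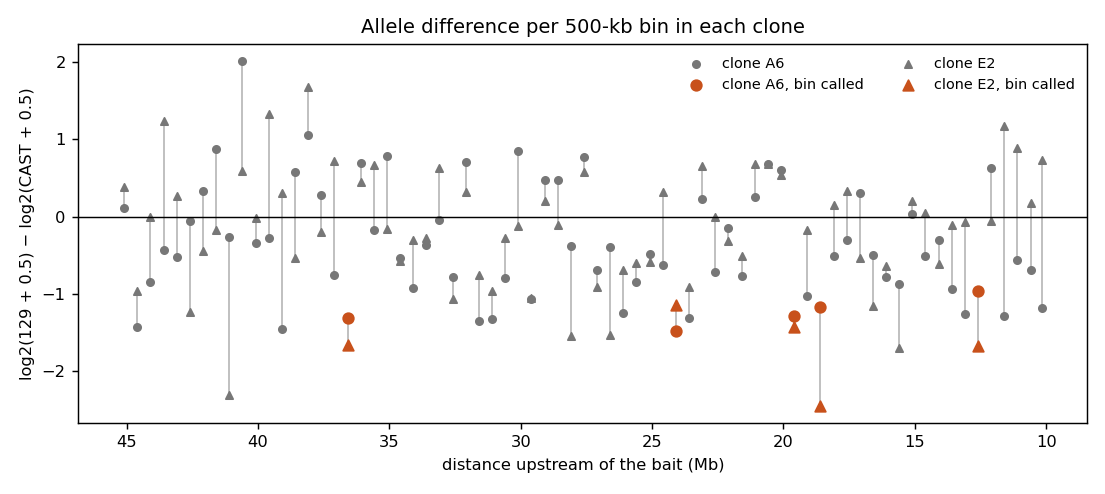
Difference between log2(RPM + 0.5) of the 129 and the CAST copy (y axis) for each bin against its distance upstream of the bait in Mb (x axis), with circles for clone A6, triangles for clone E2 and a line joining the clones of a bin. The 5 bins called by limma, in orange, are below 0 in both clones.

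The largest called difference was at 29.5 to 30 Mb, the bin of Opa1 and Atp13a4. The 129 copy had 4.55 RPM in A6 and 1.73 in E2, and the CAST copy 10.8 and 11.7 (limma log2 -1.81, SE 0.41, adjusted p = 0.00232). In own reads this bin had 913 on 129 against 1453 on CAST in A6, and 447 against 1872 in E2. Windows over Opa1 itself held 58 and 317 reads in A6 and 127 and 204 in E2. All 4 of these pairs have fewer reads on 129, although the 129 column has more reads in total.

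The bin at 11.5 to 12 Mb, where Cpped1, a phosphatase gene, starts, had 4.16 RPM on 129 in A6 and 2.04 in E2, and 11.1 and 7.52 on CAST (limma log2 -1.49, adjusted p = 0.0172). In A6, 33.3% of its CAST reads came from the window from 11790001 to 11795000, which lies in no protein-coding gene and held 0 reads on 129 in both clones. Without that window the log2 ratio of own reads was -0.79 in A6 and -1.74 in E2. Over windows with at least 10 reads on each copy, summed over the clones, the limma log2 of this bin was 0.095 (adjusted p = 0.983), so it no longer pointed to CAST.

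The highest CAST bin, 28.5 to 29 Mb, was also called (limma log2 -1.36, adjusted p = 0.00285). Windows over Mb21d2 held 28 reads on 129 against 854 on CAST in A6, with 113 and 848 in E2. Those over Fgf12, which reaches into the bin before, held 2462 and 1301 in A6 and 2078 and 1060 in E2, a log2 ratio in RPM of 0.35 and 0.38. Mb21d2 and the whole of Fgf12 thus went opposite ways in their own reads. The Fgf12 reads inside this bin were not counted apart from those in the bin before. The most read window of the stretch on CAST, from 28775001 to 28780000 and in no protein-coding gene, lies between the upper end of Fgf12 and Mb21d2. Its 129 reads were 1 in A6 and 2 in E2, its CAST reads 520 and 830, 21.4% and 33.6% of the bin's CAST reads. Without it the log2 ratio of own reads in the bin was -1.03 in A6 and -1.10 in E2. With the running mean undone and the most read window of each bin left out, the call no longer held (limma adjusted p = 0.0738).

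The bin of Parp14, Sema5b, Slc49a4 and Hspbap1 at 35.5 to 36 Mb had 6.19 RPM on 129 in A6 and 3.01 in E2, against 12.5 and 10.7 on CAST (limma log2 -1.32, adjusted p = 0.0167). Parp14 windows held 73 reads on 129 against 412 on CAST in A6, with 18 and 363 in E2. Over the whole bin, reads fell in 14 windows on 129 in each clone and in 23 on CAST. The last called bin was 24 to 24.5 Mb, where Lpp starts, a gene of focal adhesions. It had 2.93 and 3.77 RPM on 129 and 9.07 and 8.94 on CAST (limma log2 -1.31, adjusted p = 0.0348). Over the whole of Lpp, which runs on into the next bin, own reads were 593 and 1079 in A6 and 1302 and 1814 in E2. This call did not hold in edgeR (adjusted p = 0.105) or with the running mean undone (limma adjusted p = 0.113), nor with the most read window of each bin left out as well (limma adjusted p = 0.0705). In E2, 30.2% of its CAST reads came from 1 window, from 24045001 to 24050000, with 0 reads on 129 in both clones.

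These calls did not hold under every processing. limma called 0 bins of the stretch when no bin was filtered for low signal, with 1-Mb bins, and over windows with at least 10 reads on each copy. With 250-kb bins it called 8 of 137 higher on CAST and 3 on 129, against 3.41% and 5.77% of all autosomal bins of that size. Unadjusted, 18, 13, 4 and 25 bins passed in either direction, in the order given.

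No 500-kb bin was called higher on 129 without rescaling or leaving out windows. The 5 with the highest ratios among those higher in both clones are given as values. The bin at 10 to 10.5 Mb, with Rpl39l, Atf7ip2, Emp2 and Tekt5, had 3.88 RPM on 129 in A6 and 5.34 in E2, and 1.60 and 1.32 on CAST, without overlap (limma log2 1.37, adjusted p = 0.0954). It was the bin called on 129 when columns were scaled to the stretch (adjusted p = 0.0213). The bin at 7.5 to 8 Mb, without a gene start, had 2.36 and 1.48 RPM on 129 and 0.21 and 0.82 on CAST. Its neighbours in this order were 27.5 to 28 Mb, with 6.66 and 6.62 on 129 and 3.96 and 3.93 on CAST, then 20.5 to 21 Mb, with 4.46 and 4.07 against 2.41 and 2.58, and 28 to 28.5 Mb, described above. The bin at 20.5 Mb has 17 gene starts, among them Dvl3, of Wnt signalling, Ap2m1, Abcf3 and Vwa5b2, while 3 of the others have none.

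Counted by direction, 35 of the 69 bins had more signal on CAST in each clone, 11 had more on 129 in each, and 23 went opposite ways. Over all autosomes these shares were 30.5% of bins for CAST and 35.2% for 129. Scaled to the total over the stretch the counts became 20 on CAST and 24 on 129, so these counts restate the higher CAST level of the stretch. In their own reads, with the running mean undone, 30 of the 35 and 10 of the 11 had the same direction. In 34 bins both CAST values lay above both 129 values, and in 9 the reverse, against 23.4% and 28.7% of all autosomal bins. The allele ratio of a bin in A6 and in E2 had a Pearson r of 0.41 over 71 bins.

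**Figure D3:**
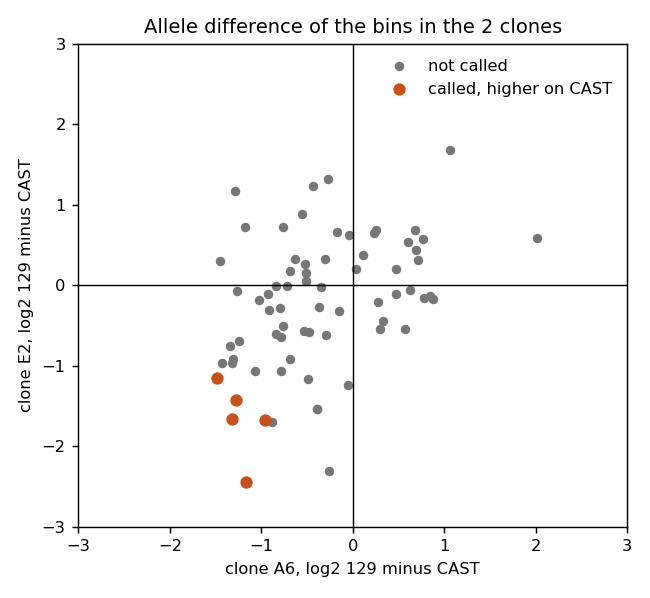
Allele difference of each bin, as log2(RPM + 0.5) of 129 minus CAST, in clone A6 (x axis) and in clone E2 (y axis). The 5 called bins, in orange, are among the 35 tested bins at the lower left, where both clones were higher on CAST, and 11 tested bins are in the upper right.

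Bins were grouped by the number of protein-coding gene starts. The 11 bins without one had 4.23 RPM on 129 in A6 and 3.78 in E2, and 4.19 and 4.01 on CAST. The 15 bins with 1 to 2 starts had 5.32 and 4.57 on 129 and 8.09 and 6.51 on CAST. They were the highest class on CAST in both clones, and on 129 in A6 but not in E2. The 18 bins with 3 to 5 starts had 4.46 and 4.62 on 129 and 6.37 and 5.77 on CAST. The 27 bins with 6 or more had 3.29 and 3.71 on 129 and 4.79 and 4.73 on CAST. Over all bins signal therefore did not rise steadily with gene number on either copy. Spearman's rho between signal and gene starts lay between -0.23 and -0.09 in the 4 columns.

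In the bins without gene starts the copies were close, with a log2 ratio of 0.01 in A6 and -0.09 in E2. In the 3 classes with genes it was -0.56 ± 0.07, -0.42 ± 0.14 and -0.45 ± 0.13 (SD, n = 2), from the fewest genes to the most. The log2 ratio of bins with 6 or more starts to bins with none was -0.36 in A6 and -0.03 in E2 on 129, and 0.20 and 0.24 on CAST. The 129 minus CAST difference was -0.56 in A6 and -0.26 in E2, or -0.41 ± 0.21. Over 10 Mb downstream it was -0.47 in A6 and -0.01 in E2, and over the other autosomes 0.04 and -0.09.

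This difference rested on 2 bins without genes, 27.5 to 28 and 28 to 28.5 Mb, at and beside Fgf12, which ranked 10 and 1 by signal on 129 and were higher on 129 in both clones. Without the part from 25 to 30 Mb, where they are the only bins without genes, the remaining 9 had 2.95 and 3.03 RPM on 129 and 3.73 and 3.90 on CAST. Their ratio was then -0.34 in A6 and -0.37 in E2, beside -0.54 and -0.35 in bins with 6 or more starts. The log2 ratio of bins with 6 or more starts to bins with none became 0.16 in A6 and 0.29 in E2 on 129. On CAST it was 0.36 and 0.28, so bins without genes were then lower on both copies. The 129 minus CAST difference between the classes became -0.21 in A6 and 0.01 in E2, or -0.10 ± 0.16. Of the 15 bins with 1 to 2 starts, 5 lie in that part. Without them this class had 4.15 and 3.49 RPM on 129 and 5.17 and 4.64 on CAST. The bins with 3 to 5 starts had 3.84 and 3.99 on 129 and 5.75 and 5.26 on CAST. The class with 1 to 2 starts was thus no longer the highest on CAST in either clone. On 129 it was the highest in A6 alone, as it was over all bins.

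**Figure D4:**
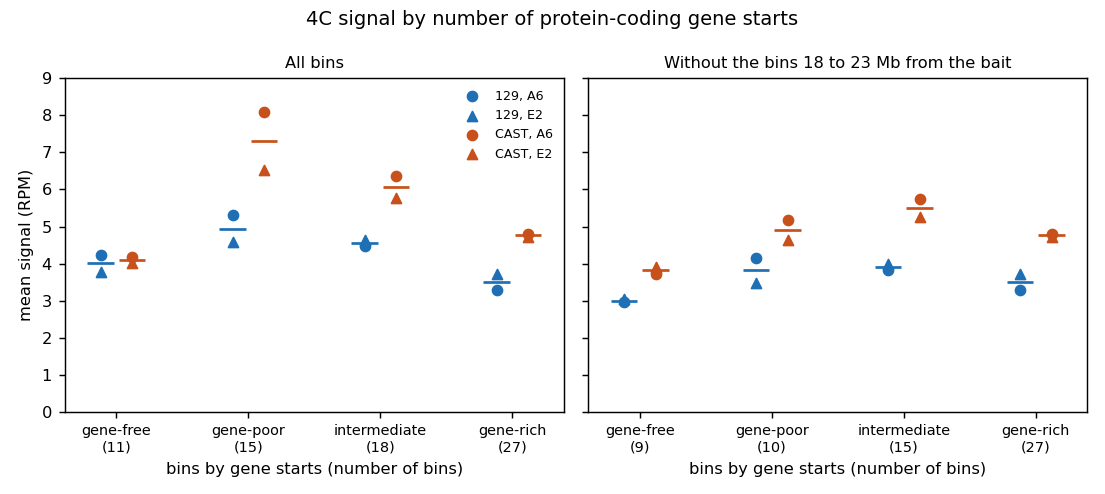
Mean signal in RPM (y axis) of bins with 0 (gene-free), 1 to 2 (gene-poor), 3 to 5 (intermediate) and 6 or more (gene-rich) gene starts (x axis), for the 129 copy in blue and CAST in orange, with circles for A6, triangles for E2 and a bar at their mean, over all bins (left) and without the part 25 to 30 Mb (right). In the left panel the copies meet in gene-free bins at about 4 RPM, and in the right panel CAST is above 129 in every class.

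Genes were also followed by name, through the bin in which each starts, so that genes of a bin share a value. The median limma log2 was 0.06 over all autosomal bins and -0.26 over the 69 tested bins of the stretch. Of those 69, 50.7% were higher on CAST in both clones, 15.9% were higher on 129 and 33.3% split. Scaled to the total over the stretch, 20 bins were higher on CAST and 24 on 129. The lists below are to be read beside these values. Of 14 genes of the DiGeorge block, which corresponds to human 22q11 and is known for a heart and palate syndrome, 8 were in bins higher on CAST in both clones (6 when scaled to the total over the stretch) and 6 in a bin that split the clones. They occupy 4 bins, with a median log2 of -0.80, of which limma and edgeR called 0 and 2 had an unadjusted limma p under 0.05. Tbx1, the T-box gene of the block, Hira, a histone chaperone gene, Cdc45, of the replicative helicase, Cldn5 and Ufd1 start at 18.5 to 19 Mb, with 2.91 and 3.88 RPM on 129 and 6.64 and 8.63 on CAST (limma log2 -1.06, adjusted p = 0.107). Dgcr8, of microRNA processing, starts in the bin before, with 3.69 and 4.84 on 129 and 1.83 and 5.33 on CAST. The windows over Hira gave a log2 ratio in RPM of -0.30 in A6 and -0.21 in E2, with 406 reads on 129 against 337 on CAST in A6 and, in E2, 719 and 553. One of them, from 18885001 to 18890000, was the second most read of the stretch on 129, with 386 and 597 reads against 8 and 45.

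All 7 plasma protein genes (Ahsg, Fetub, Hrg, Kng1, Kng2, Masp1 and Adipoq), expressed in liver or fat and not known as stem cell genes, were in 2 bins higher on CAST in both clones, also when scaled to the total over the stretch, with a median log2 of -0.63. limma and edgeR called 0 of these bins, and 1 had an unadjusted limma p under 0.05. The windows over Ahsg and Hrg held 0 reads in every column, and those over Kng2 went the other way, with 43 reads on 129 against 2 on CAST in A6 and, in E2, 247 and 6. The value of these genes is thus that of their surroundings.

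The list for DNA replication and repair holds 8 genes, and takes in Parn, a ribonuclease gene. Of these 8, 4 were in bins higher on CAST, Parn among them (4 when scaled to the total over the stretch), 1 on 129 and 3 split. Their 7 bins had a median log2 of 0.16; 3 of the bins were higher on CAST, 1 on 129 and 3 split. limma and edgeR called 0 of these bins, and 2 had an unadjusted limma p under 0.05. Mcm4, of the replicative helicase, and Prkdc, the DNA-dependent protein kinase, start at 15.5 to 16 Mb (limma log2 -0.93, adjusted p = 0.145). Prkdc windows held 82 reads on 129 against 391 on CAST in A6, with 357 and 490 in E2. Spidr, a scaffold gene of repair, was the member in a bin higher on 129 (limma log2 0.51, adjusted p = 0.523). Ercc4 and Usp7 were in bins that split the clones, as was Polq.

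Of 8 signalling and chromatin genes of embryonic stem cells, 4 were in bins higher on CAST (3 when scaled to the total over the stretch), 1 on 129 and 3 split, over 7 bins with a median log2 of -0.23. With the running mean undone the count on CAST was 3 as well. The bin of Crebbp was counted on CAST with a log2 of -0.84 in A6 but -0.0017 in E2. In own reads it split the clones. Here too limma and edgeR called 0 bins, with 2 at an unadjusted limma p under 0.05. Igf2bp2 and Etv5 share the bin at 22 to 22.5 Mb (limma log2 -0.97, adjusted p = 0.0774). Etv5 windows held 13 reads on 129 against 222 on CAST in A6, with 92 and 238 in E2, and Igf2bp2 windows 219 and 371, then 270 and 419. The windows over Hes1, Socs1 and Gsk3b held 0 reads in every column. Dvl3 was in the bin at 20.5 Mb, which was higher on 129, while its own windows held 0 reads on 129 against 16 on CAST in A6, with 0 and 82 in E2.

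Of 7 neuronal genes, 3 were in bins higher on CAST (1 when scaled to the total over the stretch), 1 on 129 and 3 split, over 7 bins, with a median log2 of -0.15. The bin of Fgf12 was called by limma, as were 2.43% of all autosomal bins in that direction. In edgeR 1 bin of this list was called, against 3.55% of all autosomal bins. Over the whole of Fgf12 own reads went the other way, with log2 ratios in RPM of 0.35 in A6 and 0.38 in E2. Kalrn, a guanine exchange factor gene of dendritic spines, held the most reads after Fgf12, with 1630 on 129 against 1562 on CAST in A6 and, in E2, 1434 and 1621. In RPM this was a log2 ratio of -0.51 in A6 and -0.76 in E2, lower on 129 in both. Rbfox1, a splicing regulator and the longest of these genes, had 1360 and 692 reads in A6 and 981 and 1324 in E2 (log2 ratios in RPM of 0.41 and -1.02), so the clones went opposite ways. Of 7 epithelial genes, 5 were in bins higher on CAST (2 when scaled likewise) and 2 split, over 6 bins, with a median log2 of -0.30. The bin of Lpp was called by limma (1 of 6, against 2.43% of all bins) and edgeR called 0. Trp63 was in a bin at 7.52 and 8.48 RPM on 129 and 12.7 and 8.55 on CAST. Its own windows held 634 and 518 reads in A6 and 1052 and 286 in E2, a log2 ratio in RPM of -0.28 and 1.29, so the clones split. Of 7 immune genes, 4 were in bins higher on CAST (4 when scaled likewise) and 3 split, over 6 bins, with a median log2 of -0.39. The bin of Parp14 was called by limma (1 of 6, against 2.43% of all bins), and edgeR called 1 bin of this list (against 3.55% of all bins). Ciita, the regulator of MHC class II genes, was in a bin that split the clones, while its windows held 11 reads on 129 against 120 on CAST in A6 and, in E2, 81 and 300.

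Below the scale of bins, the copies were read at largely different places. Of the 7068 windows of the stretch, 957 had reads on 129 against 799 on CAST in A6, with 984 and 826 in E2. Between clones the same copy was read at the same windows, with 857 shared on 129 (89.6% of those of A6 and 87.1% of those of E2) and 739 on CAST (92.5% and 89.5%). Between copies of a clone 374 windows were shared in A6 (39.1% of the 129 and 46.8% of the CAST windows) and 411 in E2 (41.8% and 49.8%). Windows read on 129 in at least 1 clone and on CAST in neither numbered 610 and held 51.2% of the 129 reads of A6 and 49.7% of those of E2. The converse held for 412 windows on CAST, with 34.7% and 40.0% of the CAST reads. CAST was thus read at fewer windows, and its median read window had 21.95 RPM in A6 and 17.4 in E2, against 12.8 and 11.1 on 129. Over the 268 windows with at least 10 reads on each copy the CAST excess of the stretch was larger, with a log2 ratio of -0.58. This restriction moved the other autosomal bins towards CAST as well. The median limma log2 of the bins tested went from 0.06 to -0.24 over all autosomes, and from -0.26 to -0.37 in the stretch. The larger excess is therefore not particular to the stretch.

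The most read windows show this split only in part. On 129 the first was from 27030001 to 27035000, in no protein-coding gene, with 423 reads on 129 against 27 on CAST in A6 and, in E2, 652 and 165. A window inside Mylk, the gene of smooth muscle myosin light chain kinase, held 364 reads on 129 against 0 on CAST in A6 and, in E2, 483 and 3. A window inside Plaat1 was the single one of the 8 most read on 129 with more CAST reads than 129 reads in a clone, at 332 and 363 reads in A6 and 436 and 252 in E2, a mean of 175 RPM on 129 and 215 on CAST. On CAST the next after that beside Mb21d2, from 25180001 to 25185000 and from 25550001 to 25555000, held 502 and 512 reads in A6 and 477 and 409 in E2, against at most 1 on 129. Others of the 8 most read on CAST were read on 129 too. The window from 13890001 to 13895000, in Pdxdc1, held 53 reads on 129 against 507 on CAST in A6, but 350 and 337 in E2. That from 22310001 to 22315000 held 48 and 606 in A6, but 301 and 185 in E2. Whether the strains differ in HindIII sites or in distinguishing bases within these windows was not tested.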

How the data were processed

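4C-seq was made from 5 mouse embryonic stem cell samples, and the 2 hybrid clones are used here. HindIII and DpnII were the enzymes, per the labels' protocols. Bowtie2, mm9 and mm10 are named by the submitters' processing notes, with the version not given in the sources used here. The deposited values are RPM of each allele column in windows of 5 kb (mm10, per the file headers), which the authors had averaged over 30 windows, or 150 kb. Reversing this average returned whole reads (tolerance 0.01) in 100% of windows, 0 of them negative. These recovered reads numbered 1937280 on 129 and 1311580 on CAST for A6, with 2397572 and 1603247 for E2. In the stretch they were 57598, 54034, 70743 and 59907, or 12.3%, 17.4%, 12.0% and 15.5% of the chromosome 16 reads. Their 95% Wilson intervals, 12.2 to 12.4%, 17.2 to 17.5%, 11.9 to 12.0% and 15.4 to 15.6%, cover counting error alone.

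Bins are means of deposited RPM. limma 3.58.1 (R 4.3.3) was fitted with a trend over bins of chromosomes 1 to 19 with a mean of at least 0.25 RPM and 50 windows. In each clone both columns come from 1 library, so the clone was the block. edgeR 4.0.16 on recovered reads was an alternative. Python 3.11.15 was used elsewhere. Gene starts are the 5′ ends for 303 genes and the middle of the gene for 60 whose strand the tables do not give, 10 of which span a bin border. The members and gene lists were chosen with earlier results of these data known. Bins were named as the 8 highest on each copy, and the 5 called (or else largest) in each direction with the same sign in both clones, with up to 4 genes each. The inbred libraries were not used.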

Additional observations from a re-analysis of the deposited data

How the results depend on the processing

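The stretch was higher on CAST under every setting tried for its level. The log2 ratio of -0.41 moved most over windows with at least 10 reads on each copy, to -0.58, and was -0.48 and -0.35 in the clones alone. Over those windows the median limma log2 of all autosomal bins tested moved the same way, from 0.06 to -0.24. The count of 5 bins called higher on CAST became 0 without the filter on low bins, 0 with 1-Mb bins, 0 over windows with at least 10 reads on each copy, and 2 scaled to the stretch. It became 8 both with a fit over chromosome 16 alone and with 250-kb bins. The fit over chromosome 16 alone called 31 of its 188 bins in either direction (16.5%), and 8 of the 69 in the stretch. The count of 0 called higher on 129 became 1 scaled to the stretch, 3 with 250-kb bins and 1 with the running mean undone and the most read window of each bin left out, the setting in which 3 of the 5 calls were kept. The pairing by clone rests on the shared library, and without the replicate block limma called 5 bins, the same 5. All 5 were kept with pseudocounts of 0.1 and 2 RPM, and 4 with the running mean undone and in edgeR. The prior degrees of freedom, infinite in the reported fit, were 2.83 without the filter and 5.84 with 1-Mb bins. Over windows with at least 10 reads on each copy, 3 named bins changed sign: 11.5 to 12 Mb (to 0.095), 25 to 25.5 Mb (from 0.44 to -0.97) and 33.5 to 34 Mb (from -0.23 to 0.56). Scaled to the stretch, 25.5 to 26 Mb (0.026) and 33.5 to 34 Mb (0.16) did, and 13 to 13.5 Mb did without the most read windows (-0.18), and 13 to 13.5 Mb (-0.16) and 33.5 to 34 Mb (0.049) did without A6. The gene-class difference of -0.41, -0.56 and -0.26 in the clones alone, fell to -0.10 without 25 to 30 Mb and -0.10 without its 2 gene-free bins, both tried after seeing the data. The counts of bins with 1 direction in both clones, 35 on CAST and 11 on 129, became 20 and 24 scaled to the stretch, and 6 on 129 over windows with at least 10 reads on each copy. Over those windows, members in bins higher on CAST went from 4 to 2 for stem cell signalling genes, from 5 to 3 for epithelial and from 4 to 2 for immune genes. Scaled to the stretch they went from 3 to 1 for neuronal and from 5 to 2 for epithelial genes. The cause of these changes was not tested. Depth limits single windows most, with a median of 25 to 29 reads per read window.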
